A study of Apis mellifera with 12 samples.

Results

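A set of 147 genes divided the brains of the 4 virgin honey bee queens into pairs. In each of these genes, the higher of virgin queens 1 and 2 stood at no more than 0.25 of the lower of virgin queens 4 and 6. The values used are counts per 1000000 counted reads (CPM), scaled between libraries with the trimmed mean of M-values (TMM). The genes came from 9193 with a mean of at least 5 CPM over the 12 queens, out of 13038 genes with at least 10 counts in all and 15314 genes counted. The genes were chosen by the CPM of the 4 virgin queens, so these values are a description and carry no test, and neither does any comparison of another group with virgin queens. The levels in mated and CO2-treated queens entered the choice only through the minimum mean of 5 CPM over the 12 queens and the scaling. A gene with few counts could pass that minimum through high values in those groups. The ratio that defines the set did not use the difference between mated and CO2-treated queens.

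The genes described by name include enzymes and secreted proteins. Cytochrome P450s, UDP-glycosyltransferases and aldehyde dehydrogenases modify hormones, lipids and foreign compounds, and acyl-CoA synthetases activate fatty acids. In insects many such enzymes act in the fat body, a tissue with functions of both liver and adipose tissue that also lies in the head around the brain, and in glands, gut and glia. Trehalase splits trehalose, the main sugar of insect blood. Hemocytes, the blood cells, and the fat body make the proteins that drive melanization. The genes carry identifiers of the honey bee annotation. A matching gene of *Drosophila melanogaster* was available for 59 of the 147, and 23 of these matches have a gene symbol other than a CG number. The roles given below are those known in *Drosophila*, and genes without such a match are given by identifier alone. The matches were taken from the study's supplementary lists of genes that differed between its treatment groups in these same libraries. Of the set, 95 genes are on those lists, and the others could not be named. The named genes were thus partly selected for differences between treatment groups. Their roles and their levels in mated and CO2-treated queens do not describe the set as a whole. No sequences of these genes were used here.

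The queens were sisters of mainly *ligustica* stock from 1 source colony, all 8 days old when frozen, and each library holds the brain of 1 queen. Mated queens (n = 4, numbers 1, 4, 6 and 7) had returned from a successful mating flight and had activated ovaries and stored semen. CO2-treated queens (n = 4, numbers 1, 2, 5 and 7) had received 2 sessions of narcosis of 10 min each, on consecutive days, and virgin queens (n = 4, numbers 1, 2, 4 and 6) were caged along with them but not narcotized. Neither of these groups had eggs or semen. The sample names of mated queen 1, CO2-treated queens 1 and 2 and virgin queen 1 end in a suffix, br, which the sources used here do not explain.

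Libraries held between 12434733 and 20677514 counted reads, and TMM factors ranged from 0.556 to 1.37, with the lowest in mated queens. In mated queens a single gene of the set, GB49544, took 13.7% to 42.7% of all counts, against 1.12% to 5.02% in CO2-treated and 0.153% to 2.89% in virgin queens. The other 146 genes together took 6.05% to 9.50% of the counts of mated queens and 4.84% to 10.5% of those of CO2-treated queens. In virgin queens they took 9.41% and 11.6% in queens 4 and 6, and 0.580% and 0.705% in queens 1 and 2. Of the neuronal markers, *syt*, a synaptic vesicle protein (GB54319), was found at 31.8 to 374 CPM in every queen, whereas *brp*, an active zone protein (GB51381), did not exceed 4.25 CPM in any. In whole-brain RNA, fewer cells of a type and less RNA per cell cannot be told apart.

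Among virgin queens, the lower of queens 4 and 6 exceeded the higher of queens 1 and 2 by a median of 7.01-fold over the set. The fold was at least 10 in 40 genes, at least 20 in 22 and at least 50 in 8. The split ran almost wholly in 1 direction: by the same limit turned round, only GB50220 was higher in virgin queens 1 and 2, with 6.12 and 14.9 CPM in virgin queens 4 and 6 and 96.4 and 97.2 CPM in virgin queens 1 and 2. The limit cut through a continuous range. Just inside it, by the ratio of the higher of virgin queens 1 and 2 to the lower of virgin queens 4 and 6, GB45701, ortholog of *MP1*, had a ratio of 0.2498, and GB43805, ortholog of *Nep4*, one of 0.248. Just outside it, GB49929 had 0.2502 and GB54258 had 0.2506. Abundance varied widely within the set, since mean levels over the 12 queens ran between 5.60 and 156781 CPM, with 25 genes at 1000 CPM or more, 76 at 100 CPM or more and 24 under 20 CPM. These levels are not corrected for transcript length.

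GB43571, on which the search for such genes was modelled, took the second largest share of counts in the set. It had 8159, 17988, 8870 and 18345 CPM in mated queens 1, 4, 6 and 7. CO2-treated queens 1, 2, 5 and 7 had 5591, 14874, 10722 and 12532 CPM. Virgin queens 4 and 6 had 13147 and 15336 CPM, and virgin queens 1 and 2 had 78.7 and 128 CPM. All mated and CO2-treated queens therefore lay near the high virgin pair and far above the low one. The mated and CO2-treated groups overlapped, and the log2 fold change of mated over CO2-treated queens was 0.29 (SE 0.44, edgeR adjusted p = 0.739), and -0.37 when library totals alone set the scale.

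**Figure D1:**
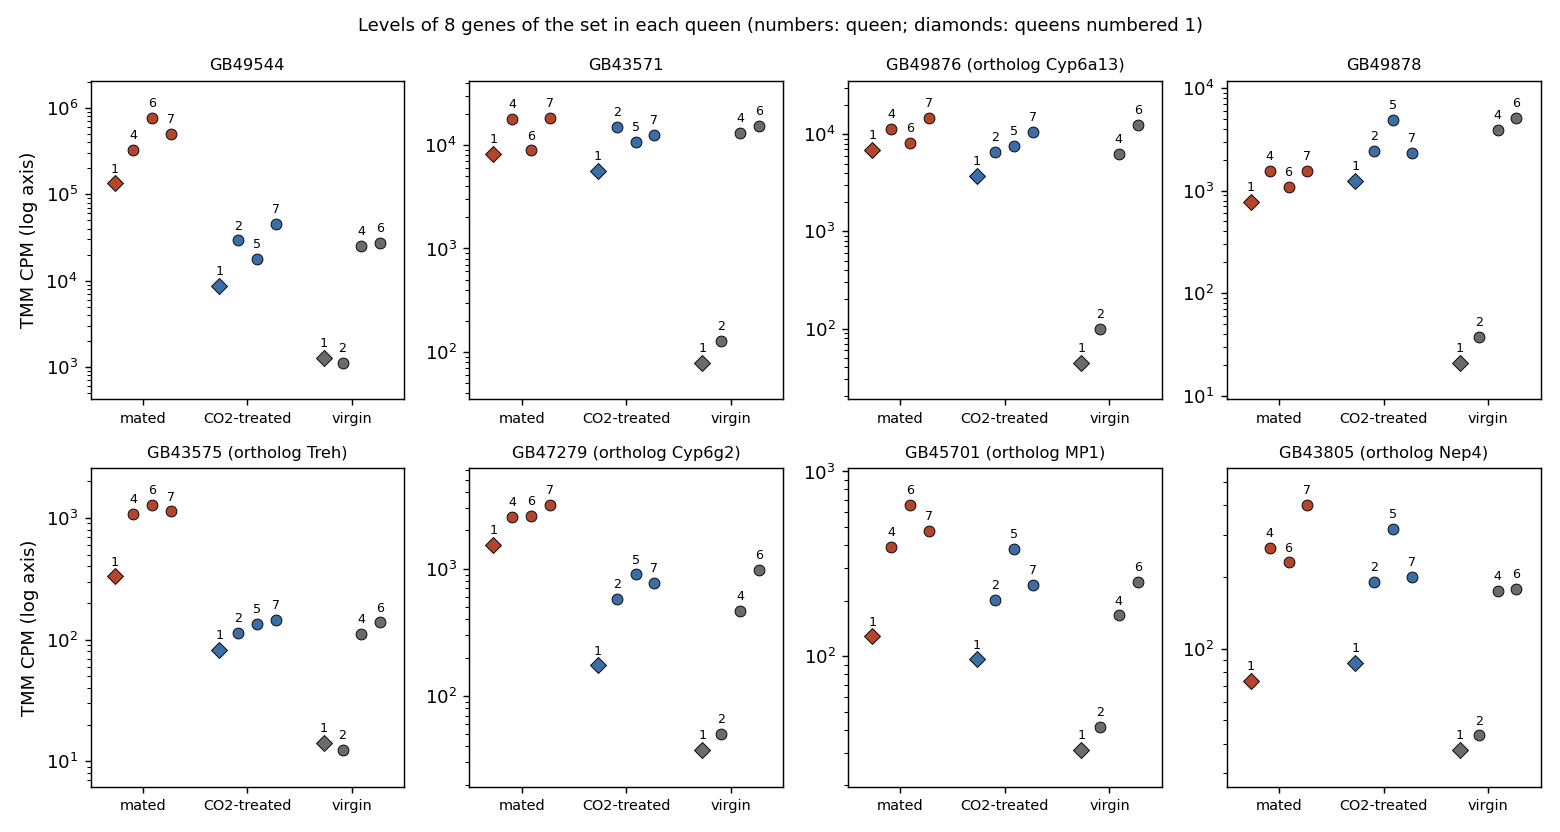
TMM CPM on a log axis of 8 genes of the set in each mated, CO2-treated and virgin queen, with 1 point per queen labelled by its number and diamonds for the queens numbered 1. In all 8 genes virgin queens 1 and 2 lie below the other queens, and for GB49544, GB43575 and GB47279 the 4 mated queens lie above the 4 CO2-treated queens.

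Most of the set was also above the low virgin pair in these queens, though not always near the high one. In 138 of the 147 genes, all 8 mated and CO2-treated queens were above both virgin queens 1 and 2, and in the remaining 9 at least 1 of them was not. This held for 7.27% of the 9193 genes, but low values in virgin queens 1 and 2 chose the set, so nothing is read from the difference. Counted by queen, between 0 and 6 genes were at or below the low virgin pair in any mated or CO2-treated queen. The median level of the set was 65.4, 160, 179 and 167 CPM in mated queens 1, 4, 6 and 7. It was 41.8, 112, 101 and 104 CPM in CO2-treated queens 1, 2, 5 and 7. It was 91.8 and 128 CPM in virgin queens 4 and 6, against 9.43 and 9.62 CPM in virgin queens 1 and 2. No mated or CO2-treated queen had a median as low as those of virgin queens 1 and 2, and the queens numbered 1 were the lowest of both groups.

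Relative to the mean of virgin queens 4 and 6, the median gene of the set lay at 0.64, 0.56 and 0.63 on the log2 scale in mated queens 4, 6 and 7, and at -0.71 in mated queen 1. In CO2-treated queens 2, 5 and 7 it lay at -0.09, -0.12 and 0.02, and at -1.31 in CO2-treated queen 1. Mated queens 4, 6 and 7 were above both virgin queens 4 and 6 in 87, 81 and 95 genes, and mated queen 1 in 24, against 33.7%, 29.6%, 25.8% and 23.7% of the 9193 genes. CO2-treated queens 2, 5 and 7 were above both in 36, 50 and 48 genes, and CO2-treated queen 1 in 2, against 18.2%, 21.6%, 20.4% and 28.8% of the 9193. All 4 mated queens exceeded both high virgin queens in 22 genes of the set and 5.71% of the 9193, and all 4 CO2-treated queens did so in 1, GB51613, and in 4.85% of the 9193. The levels of virgin queens 4 and 6 also chose the set, so these shares are given as a description.

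**Figure D2:**
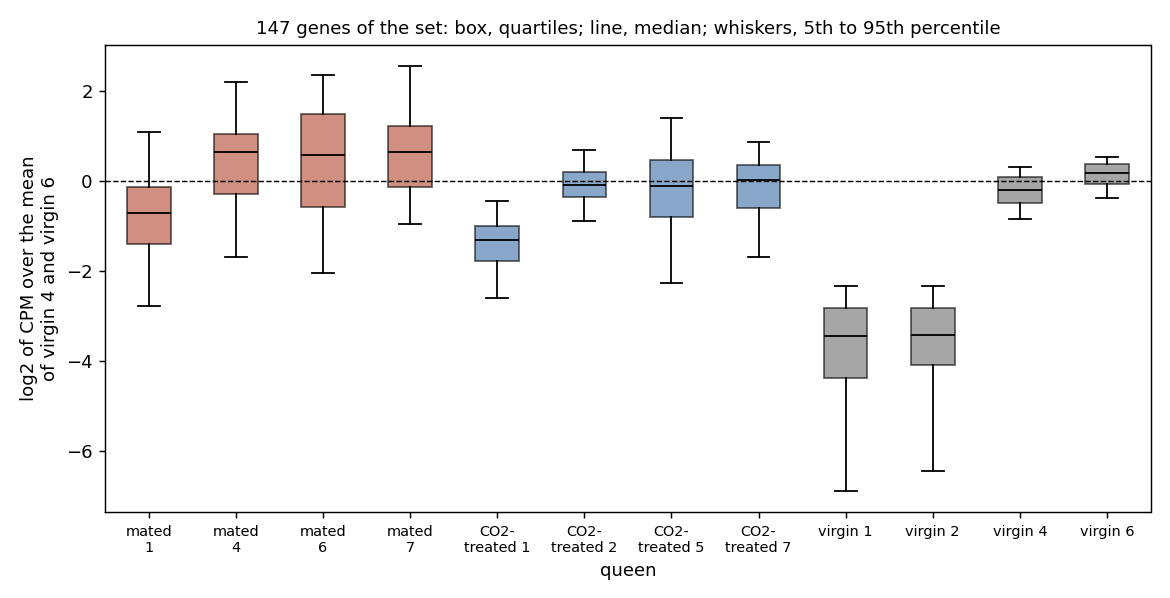
Log2 level of the 147 genes in each queen relative to the mean of virgin queens 4 and 6, with boxes for quartiles, lines for medians and whiskers for the 5th and 95th percentiles. Mated queens 4, 6 and 7 have medians of 0.56 to 0.64, mated queen 1 and CO2-treated queen 1 have -0.71 and -1.31, and the other CO2-treated queens have -0.12 to 0.02.

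The mated and CO2-treated queens were then compared in a fit to these 8 queens alone, which no virgin value enters. The trehalase ortholog GB43575 and its neighbour GB43576 rose in mated queens, 2 of the 147 genes (1.36%), against 0.545% of the 13038 genes tested. No gene of the set fell, against 0.176% of all genes tested. The unadjusted p was under 0.05 in 59 genes of the set and in 2262 of all genes tested. By the sign of the log2 fold change, 111 of the 147 were higher in mated queens (75.5%) and 36 were lower, whereas 47.1% of all genes tested were higher. The median log2 fold change was 0.74 over the set and -0.03 over all genes tested. The mated queens were all above the CO2-treated queens in 13 genes (8.84%, against 5.48% of all genes tested) and all below them in 3 (2.04%, against 5.33%). The genes of the set vary together between queens, so they are not 147 separate observations.

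The number of genes that passed depended on single queens, and the size of the median on the scaling. Without mated queen 1 the set held 24 genes with an adjusted p under 0.05, 23 of them higher in mated queens, and 680 of all genes passed. Leaving out mated queen 7, CO2-treated queen 1 or CO2-treated queen 2 left none. When library totals alone set the scale, the median of all genes moved to -0.67 and that of the set to 0.03, so the set stayed above the bulk of genes by a similar margin but its own median was near 0 and 78 of its genes were higher in mated queens.

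**Figure D3:**
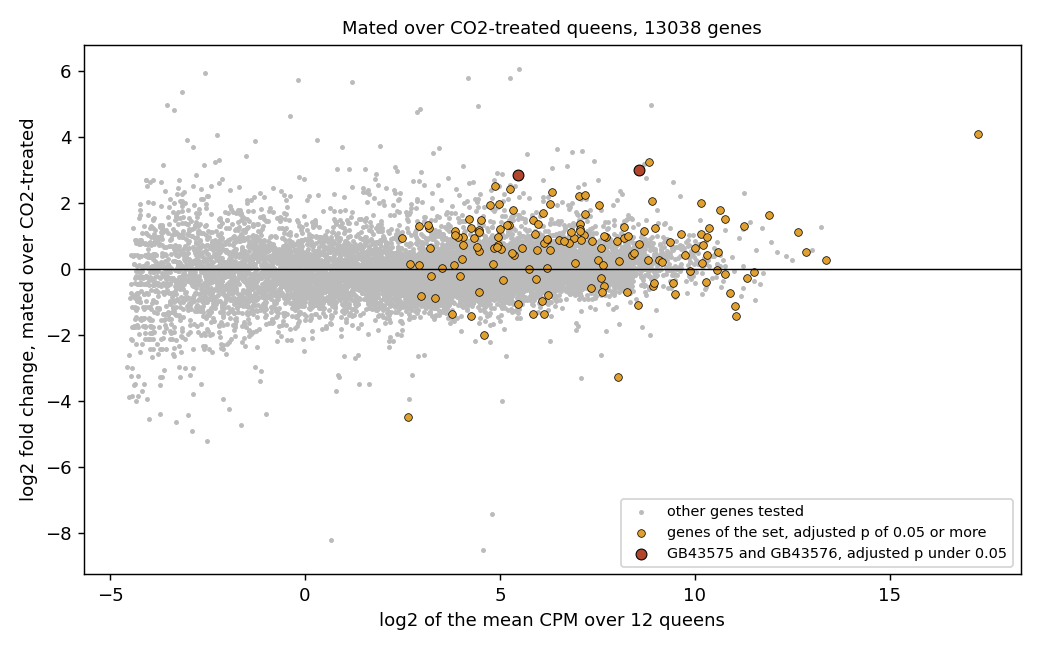
Log2 fold change of mated over CO2-treated queens against the log2 mean CPM over 12 queens for 13038 genes, with the 147 genes of the set marked. Of the set, 111 genes lie above 0 and 36 below, and GB43575 and GB43576 are the only ones with an adjusted p under 0.05.

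GB43575 (ortholog *Treh*, trehalase) had 331, 1076, 1272 and 1132 CPM in mated queens 1, 4, 6 and 7. It had 81.8, 114, 135 and 146 CPM in CO2-treated queens 1, 2, 5 and 7. Among virgin queens, queens 4 and 6 had 112 and 139 CPM and virgin queens 1 and 2 had 14.3 and 12.4 CPM. The CO2-treated queens thus lay at about the level of the high virgin pair and the mated queens above both. The group means were 953 ± 423 CPM in mated and 119 ± 28.1 CPM in CO2-treated queens (SD, n = 4 each), and mated over CO2-treated gave a log2 difference of 3.00 (SE 0.41, edgeR adjusted p = 0.0151). GB43576 had 41.5, 119, 144 and 134 CPM in mated queens and 9.37, 14.4, 17.3 and 18.8 CPM in CO2-treated queens, and mated over CO2-treated gave a log2 difference of 2.87 (SE 0.39, edgeR adjusted p = 0.0147). Leaving out 1 queen at a time kept both genes past the threshold in 3 of 8 fits. Without mated queen 7 or any 1 of the CO2-treated queens the adjusted p of GB43575 was between 0.0554 and 0.0695, with log2 fold changes of 2.85 to 3.11. In a fit to all 12 queens the adjusted p was 0.0913 for GB43575 and 0.0730 for GB43576 in edgeR. The ratio of GB43575 to GB43576 stayed between 6.49 and 9.11 in all 12 queens. Whether the gene models share reads could not be determined, so they may not be separate measurements.

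GB49544 took the largest share of counts in the set. It had 133250, 324482, 769172 and 499055 CPM in mated queens 1, 4, 6 and 7. CO2-treated queens 1, 2, 5 and 7 had 8672, 29134, 17955 and 44905 CPM. Virgin queens 4 and 6 had 25150 and 27225 CPM, and virgin queens 1 and 2 had 1259 and 1118 CPM. All mated queens were above all others, and CO2-treated queen 1 was the lowest queen outside the low virgin pair. The log2 fold change of mated over CO2-treated queens was 4.10 (SE 0.94), with an adjusted p of 0.0838 in edgeR. Of the fits that left out 1 queen, only that without mated queen 1 brought it under 0.05 (adjusted p = 0.0300). It was also under 0.05 without both queens numbered 1 (adjusted p = 0.0438), with library totals (adjusted p = 0.0279), in edgeR's exact test (adjusted p = 1.6e-07) and in DESeq2 (adjusted p = 2.8e-10). Removing this gene from the counts before scaling left the median log2 fold change of the set at 0.74 and its 2 calls in place.

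Enzymes of the kind that detoxify foreign compounds took large shares of counts. GB49876 (ortholog *Cyp6a13*, a cytochrome P450) had 6869, 11431, 8136 and 14795 CPM in mated queens 1, 4, 6 and 7 and 3716, 6597, 7628 and 10549 CPM in CO2-treated queens 1, 2, 5 and 7. It stood at 6275 and 12397 CPM in virgin queens 4 and 6 and at 44.5 and 99.7 CPM in virgin queens 1 and 2. The mated and CO2-treated queens overlapped. Another cytochrome P450, GB47279 (ortholog *Cyp6g2*), separated them: it had 1528, 2540, 2598 and 3160 CPM in mated queens and 173, 580, 901 and 777 CPM in CO2-treated queens, and mated over CO2-treated gave a log2 difference of 2.01 (SE 0.47, edgeR adjusted p = 0.0871). GB49240 (ortholog *Aldh*, aldehyde dehydrogenase) averaged 7313 ± 3023 CPM in mated and 2334 ± 1333 CPM in CO2-treated queens (SD, n = 4 each), with an overlap at 3520 CPM. GB54460 (ortholog *Ugt86Dd*, a UDP-glycosyltransferase) averaged 1864 ± 688 CPM in mated and 1378 ± 559 CPM in CO2-treated queens (SD, n = 4 each), and its fold between the virgin pairs was 39.6.

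The set also held enzymes of fatty acid metabolism. GB51729 (ortholog *CG6178*, an acyl-CoA synthetase) had 2562, 5578, 3972 and 5822 CPM in mated queens 1, 4, 6 and 7. It had 878, 2403, 1327 and 2642 CPM in CO2-treated queens 1, 2, 5 and 7, so only mated queen 1 and CO2-treated queen 7 overlapped. Virgin queens 4 and 6 had 2041 and 2138 CPM and virgin queens 1 and 2 had 22.6 and 25.1 CPM. A further acyl-CoA synthetase, GB40077 (ortholog *CG9009*), had 714 to 4943 CPM in mated and 486 to 1413 CPM in CO2-treated queens. GB51238 (ortholog *desat1*, a fatty acid desaturase) had 374, 589, 1899 and 612 CPM in mated queens and 223, 436, 229 and 576 CPM in CO2-treated queens, with 348 and 646 CPM in virgin queens 4 and 6 and 53.7 and 74.3 CPM in virgin queens 1 and 2. Mated queen 6 stood apart from the other mated queens in this gene, and the groups overlapped. None of the 3 genes passed the test between mated and CO2-treated queens, with adjusted p of 0.172 for GB51729, 0.276 for GB40077 and 0.265 for GB51238 in the quasi-likelihood fit of edgeR.

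Besides trehalase, the set held genes of sugar metabolism and transport. GB46579 (ortholog *Zw*, glucose-6-phosphate dehydrogenase, the entry enzyme of the pentose phosphate pathway) had 97.4, 267, 298 and 225 CPM in mated queens 1, 4, 6 and 7 and 59.3, 134, 94.0 and 97.7 CPM in CO2-treated queens 1, 2, 5 and 7. Only mated queen 1 overlapped the CO2-treated queens, and the log2 fold change was 1.21 (SE 0.35, edgeR adjusted p = 0.146). GB45582 and GB41034 share the ortholog *CG10960*, a sugar transporter. GB45582 had 192 to 353 CPM in mated and 64.1 to 143 CPM in CO2-treated queens, with no overlap, and GB41034 had 109 to 236 CPM in mated and 45.8 to 127 CPM in CO2-treated queens. Their log2 fold changes were 1.03 (adjusted p = 0.138) and 0.94 (adjusted p = 0.206 in edgeR).

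Secreted and immune proteins formed a further group. GB45701 (ortholog *MP1*, a serine protease of the melanization cascade) had 128, 392, 657 and 477 CPM in mated queens 1, 4, 6 and 7 and 95.9, 202, 380 and 243 CPM in CO2-treated queens 1, 2, 5 and 7. The lowest value of each group was that of queen 1. GB50930 (ortholog *srp*, serpent, a GATA factor of fat body and blood cell development) had 40.0 to 118 CPM in mated and 21.9 to 66.7 CPM in CO2-treated queens, with 54.6 and 33.9 CPM in virgin queens 4 and 6 and 6.61 and 4.24 CPM in virgin queens 1 and 2. GB55389 (ortholog *fat-spondin*, a secreted protein) had 515, 991, 1468 and 1266 CPM in mated queens and 294, 521, 830 and 729 CPM in CO2-treated queens. In GB43805 (ortholog *Nep4*, a neprilysin peptidase) mated queen 1 had 73.5 CPM, below all CO2-treated queens, whereas the other mated queens had 230 to 400 CPM against 87.3 to 318 CPM in CO2-treated queens. The log2 fold change of these 4 genes was between 0.28 and 0.84, and the adjusted p between 0.304 and 0.771 in the quasi-likelihood fit of edgeR.

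Genes known for roles in signalling, sensation and cilia were also present. GB55511 (ortholog *Alp23B*, an activin-like ligand of the TGF-beta family) had 145, 282, 468 and 224 CPM in mated queens 1, 4, 6 and 7 and 51.1, 82.3, 23.7 and 78.2 CPM in CO2-treated queens 1, 2, 5 and 7. No queen overlapped, and the log2 fold change was 2.25 (SE 0.45, edgeR adjusted p = 0.0642). Here the virgin pair of queens 4 and 6, at 145 and 186 CPM, stood above all CO2-treated queens, and CO2-treated queen 5 lay within the low virgin pair of 33.0 and 23.2 CPM. GB51673 (ortholog *Dhc93AB*, an axonemal dynein heavy chain) had 124, 136, 381 and 536 CPM in mated queens and 34.2, 125, 95.5 and 116 CPM in CO2-treated queens. The ciliary gene GB46678 (ortholog *BBS4*) had 32.8 to 135 CPM in mated and 28.8 to 77.5 CPM in CO2-treated queens, against 59.5 and 70.7 CPM in virgin queens 4 and 6 and 0.871 and 2.61 CPM in virgin queens 1 and 2. Of the sensory channels, GB53179 (ortholog *ppk23*, a DEG/ENaC channel) had 27.0 to 130 CPM in mated and 16.6 to 29.7 CPM in CO2-treated queens, and GB44093 (ortholog *nompC*, a mechanotransduction channel) had 31.7 to 51.5 CPM in mated and 16.3 to 44.4 CPM in CO2-treated queens. The odorant receptor GB50053 (ortholog *Or13a*) had 7.21 to 24.3 CPM in mated and 3.81 to 8.34 CPM in CO2-treated queens. It had 8.87 and 20.9 CPM in virgin queens 4 and 6, 0.205 CPM in virgin queen 1 and a count of 0 in virgin queen 2, which allows up to 0.148 CPM at that depth. None of these genes passed the test between mated and CO2-treated queens. Of 4 other ciliary genes examined, outside the set, 1 was higher in both virgin queens 4 and 6 than in virgin queens 1 and 2, 1 was lower and 2 overlapped. Of 9 other odorant receptors, 1 was higher, 1 was lower and 7 overlapped. These counts leave out the genes of the set, 3 ciliary genes and 1 odorant receptor, so they do not show how these classes behave as a whole.

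Other genes with large shares of counts had no ortholog symbol and overlapped between the groups. GB53578 had 6414, 13411, 8933 and 14626 CPM in mated queens 1, 4, 6 and 7 and 1849, 4431, 6139 and 7241 CPM in CO2-treated queens 1, 2, 5 and 7, with only mated queen 1 in the range of the CO2-treated queens (log2 fold change 1.14, SE 0.47, edgeR adjusted p = 0.256). GB45278 had one of the widest gaps between the virgin pairs, with 4107 and 3790 CPM in virgin queens 4 and 6 and 35.6 and 32.0 CPM in virgin queens 1 and 2. It had 1538 to 3602 CPM in mated and 1402 to 4483 CPM in CO2-treated queens. GB43006 had 851 to 2473 CPM in mated and 1022 to 3222 CPM in CO2-treated queens, GB40021 had 941 to 2801 CPM in mated and 1318 to 4095 CPM in CO2-treated queens, and GB55452 had 2651 to 4369 CPM in mated and 1568 to 6951 CPM in CO2-treated queens. None of these 5 genes passed the test.

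Several genes ran against the main direction. GB48260 had 284, 1948, 1146 and 1778 CPM in mated queens 1, 4, 6 and 7 and 1924, 3878, 3980 and 4094 CPM in CO2-treated queens 1, 2, 5 and 7, so the groups overlapped only through mated queen 4 and CO2-treated queen 1. GB49878 had 781 to 1562 CPM in mated and 1234 to 4852 CPM in CO2-treated queens, against 3935 and 5138 CPM in virgin queens 4 and 6. Their log2 fold changes were -1.43 (adjusted p = 0.218) and -1.12 (adjusted p = 0.220 in the quasi-likelihood fit of edgeR). The 3 genes in which all mated queens were below all CO2-treated queens were GB43892, GB55257 and GB41407, and they are named because they were so few, after their values were seen. GB43892 (ortholog *CG8665*, a formyltetrahydrofolate dehydrogenase) had 13.1, 99.7, 60.7 and 13.2 CPM in mated queens 1, 4, 6 and 7. It had 203, 589, 606 and 398 CPM in CO2-treated queens 1, 2, 5 and 7. Virgin queens 4 and 6 had 557 and 445 CPM and virgin queens 1 and 2 had 86.6 and 51.6 CPM. Mated queens 1 and 7 lay below the low virgin pair, mated queen 6 within it and mated queen 4 just above it. The log2 fold change of mated over CO2-treated queens was -3.27 (SE 0.70, edgeR adjusted p = 0.0735). GB55257 had 163 to 363 CPM in mated and 381 to 901 CPM in CO2-treated queens. GB41407 did not exceed 0.649 CPM in any mated queen, with a count of 0 in mated queen 6 that allows up to 0.261 CPM, and ran between 0.672 and 25.7 CPM in CO2-treated queens, against 18.8 and 11.5 CPM in virgin queens 4 and 6 and 0.871 and 0.444 CPM in virgin queens 1 and 2.

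The spread within the mated and CO2-treated groups had a common form. Mated queen 1 was the lowest mated queen in 126 of the 147 genes (85.7%), against 30.5% of the 9193 genes with a mean of at least 5 CPM. CO2-treated queen 1 was the lowest of its group in 123 genes (83.7%), against 37.6% of the 9193. Both held in 108 genes of the set, but how many of the 9193 did so was not counted, so nothing is read from that number. No other queen was the lowest of its group in more than 16 genes of the set, whereas each other queen was the lowest in 12.9% to 32.9% of the 9193. Mated queen 6, with the lowest TMM factor and the highest share of GB49544, was the lowest in 12 genes, and CO2-treated queen 2 in 2. When library totals alone set the scale, mated queen 1 was the lowest mated queen in 76 genes of the set (51.7%, against 5.7% of genes) and mated queen 6 in 57 (38.8%, against 51.8%), and CO2-treated queen 1 was the lowest of its group in 114 (77.6%, against 18.4%).

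**Figure D4:**
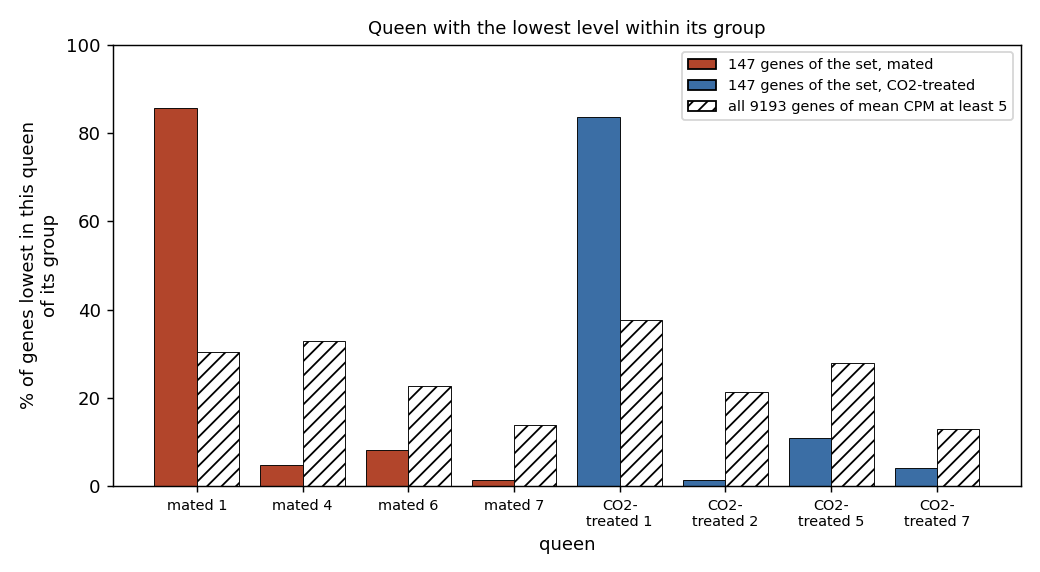
Percentage of genes for which each queen had the lowest level of its group, with filled bars for the 147 genes of the set and hatched bars for all 9193 genes with a mean of at least 5 CPM. Mated queen 1 and CO2-treated queen 1 reach 85.7% and 83.7% of the set, against 30.5% and 37.6% of all genes, and each of the others stays at 10.9% or below in the set.

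All 3 queens numbered 1 carry the suffix br, which leaves the number and the suffix confounded in those animals, but CO2-treated queen 2 also carries it. In a fit to the 8 mated and CO2-treated queens with group and suffix as terms, 144 of the 147 genes had lower values with the suffix and 3 had higher ones. The median log2 fold change of br over no suffix was -0.81 for the set and 0.03 for all genes tested, of which 47.1% were lower with the suffix. No gene passed the threshold in the quasi-likelihood fit of edgeR, in the set or among all genes tested (0% each way), and 52 genes of the set and 889 of all genes had an unadjusted p under 0.05. Without mated queen 1 the median of the set was -0.49, and without CO2-treated queen 2, which leaves only queens numbered 1 with the suffix, it was -1.30. CO2-treated queen 2 did not share the low values of the queens numbered 1, being the lowest of its group in only 2 genes of the set. Virgin queen 2, of the low virgin pair, carries no suffix. These are values of single queens, and the cause of the low values was not tested.

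Over the same 8 queens, with each value set against its group mean on the log2 scale, pairs of genes of the set had a median Pearson correlation of 0.61, against -0.02 for pairs of all 9193 genes, and 93.8% of the pairs were above 0. In 127 genes the correlation with the mean of the others was above 0.5, and in 3 it was below 0. These are descriptions over 8 queens that share library depth and scaling. The mean deviation of the set was -0.95 in mated queen 1 and -0.92 in CO2-treated queen 1 and lay between 0.22 and 0.41 in the other 6 queens. Of the 9046 other genes, 2165 also had a correlation above 0.5 with the mean of the set. With so few queens such values also arise by chance, at a rate that was not determined here.

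Some genes of the set have neighbouring identifiers. There were 13 runs of consecutive identifiers, which held 30 of the 147 genes, and the longest held 4, GB49875 to GB49878. Within it, the ratio of GB49876 to GB49877 lay between 6.34 and 10.4 over the 12 queens, whereas the ratio of GB49876 to GB49878 lay between 1.57 and 9.51. GB54001 and GB45584, which are not neighbours by identifier, kept the narrowest ratio of the pairs examined, 1.26 to 1.43, and for GB46528 and GB46527 it was 2.24 to 3.74. The levels of GB46528 were 472, 1123, 1011 and 1057 CPM in mated queens 1, 4, 6 and 7 and 60.7, 323, 24.8 and 459 CPM in CO2-treated queens 1, 2, 5 and 7, so its lowest CO2-treated queen was queen 5. These pairs were picked after their values were seen. Near-identical copies could divide reads between them in the counting, so such pairs are uncertain as separate genes.

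Marker genes of other cell types, counted without the genes of the set, also differed between the virgin pairs. They were picked by ortholog name from the study's lists of genes that differed between its treatment groups in these same libraries. Comparisons with virgin queens were among those behind the lists, so the levels of these markers in virgin queens are a description and carry no test. For the 6 hemocyte and humoral immunity genes, the summed level was 1146 to 3371 CPM in mated queens, 989 to 4068 CPM in CO2-treated queens, 779 and 2112 CPM in virgin queens 4 and 6 and 393 and 427 CPM in virgin queens 1 and 2. All 6 were higher in both virgin queens 4 and 6 than in virgin queens 1 and 2, including GB50121 (ortholog *Hml*, hemolectin, a hemocyte protein) with 556 and 1412 CPM, against 315 CPM in each of virgin queens 1 and 2. None of the 6 passed the test between mated and CO2-treated queens. The split was not particular to this list, since all 3 histone genes examined were also higher in both virgin queens 4 and 6. So were 2 of 4 heat shock genes, with 1 lower and 1 overlapping, and 2 of 3 activity-induced transcription factors, with 1 overlapping. The share of all genes with such a split, in either direction, was not counted. These counts, and those of the lists that follow, are therefore not read as results about any cell type. The 3 genes for proteins that the fat body secretes summed to 9752 to 25301 CPM in mated, 5557 to 8666 CPM in CO2-treated, 7148 and 5339 CPM in virgin queens 4 and 6 and 4703 and 2200 CPM in virgin queens 1 and 2. No summed level of this list overlapped between mated and CO2-treated queens, and mated queen 1 and CO2-treated queen 1 were the lowest of their groups. None of the 3 genes passed the test between mated and CO2-treated queens, with adjusted p of 0.138 to 0.210 in the quasi-likelihood fit of edgeR. Most of the summed level is GB54507 (ortholog *RfaBp*, a lipid carrier of insect blood), whose levels were higher in both virgin queens 4 and 6. The other 2 genes share the ortholog *Lsp2*, a storage protein. GB51698 was also higher in this pair, with 48.8 and 56.5 CPM in virgin queens 4 and 6 and 19.0 and 34.8 CPM in virgin queens 1 and 2, but GB51697 was lower, with 15.9 and 13.8 CPM in virgin queens 4 and 6 and 24.9 and 19.3 CPM in virgin queens 1 and 2.

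The sum of the 8 photoreceptor genes ran the other way, with 71.2 to 267 CPM in mated, 86.2 to 192 CPM in CO2-treated, 226 and 155 CPM in virgin queens 4 and 6 and 867 and 458 CPM in virgin queens 1 and 2. Of the 8, 4 were lower in both virgin queens 4 and 6 than in virgin queens 1 and 2, and 4 overlapped between the pairs. The 19 muscle genes did not follow the virgin pairs, since virgin queen 6 had 7282 CPM and virgin queen 4 had 1758 CPM, against 1777 and 1506 CPM in virgin queens 1 and 2. In mated queens the muscle genes summed to 1479 CPM in queen 1 and 8150 to 19688 CPM in the others. The neuronal gene *syt* (GB54319) had 136 and 129 CPM in virgin queens 4 and 6, against 31.8 and 34.0 CPM in virgin queens 1 and 2, and so followed the split, whereas *brp* (GB51381), at 1.57 and 0.215 CPM in virgin queens 4 and 6 and 4.25 and 1.43 CPM in virgin queens 1 and 2, did not. No gene of the muscle, photoreceptor, fat body or neuronal list is in the set, and 2 of the hemocyte list, 1 of the 10 odorant receptors and 3 of the 7 ciliary genes are. The part of these cell types in the levels of the set was not tested.

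**Figure D5:**
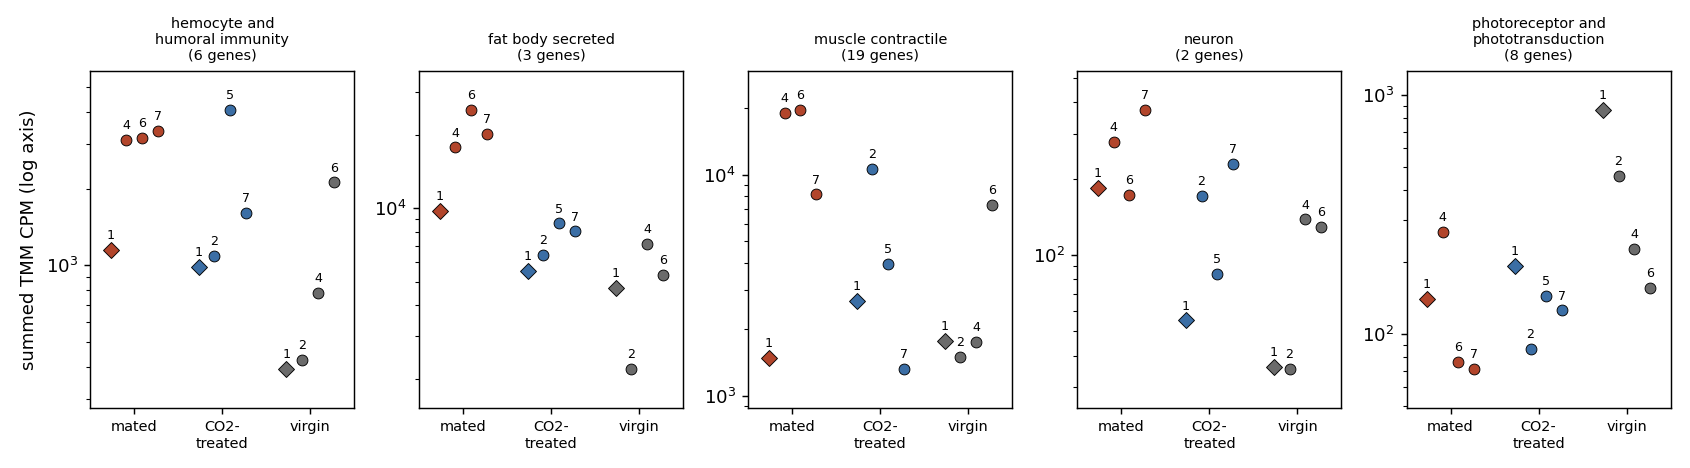
Summed TMM CPM on a log axis of marker genes outside the set in each mated, CO2-treated and virgin queen, with 1 point per queen labelled by its number and diamonds for the queens numbered 1. Virgin queens 4 and 6 lie above virgin queens 1 and 2 for the sums of hemocyte and neuronal genes, of which the neuronal one is nearly all *syt*, and below them for the sum of photoreceptor genes, and mated queen 1 has 1479 CPM of muscle genes against 8150 to 19688 CPM in the other mated queens.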

How the data were processed

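Brain RNA of 12 queens was sequenced by the authors as 1 library per queen. Per the methods and labels, reads were trimmed with Trimmomatic, ribosomal reads were removed with SortMeRna, and the rest were aligned with TopHat to assembly Amel 4.5 and counted per gene with SAMtools. Tool versions are not given in the sources used here, nor is the lane of each queen. The values used were the raw read counts the authors deposited. A standardized form of the same counts was not used. Reads carried no molecular identifiers, so the floor of 3 counts given for a gene at 0 covers counting error only. Nothing states that counting used strand.

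Genes with at least 10 counts in all were kept, and TMM factors and CPM were computed over 12 queens (edgeR 4.0.16 in R 4.3.3). The genes of the set and all gene lists were chosen with earlier results of these data known. Mated and CO2-treated queens were compared in a fit to these 8 queens with edgeR's quasi-likelihood test, and the suffix in a fit with group and suffix, with Benjamini-Hochberg adjustment over all 13038 genes and a threshold of 0.05. The p-values measure the spread between 4 queens per group that are sisters. The code was tested on simulated data.

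Genes named in full were GB43571, the 12 with the highest mean CPM, those that passed the test, and the 12 most abundant with an ortholog symbol. Others were added as examples of a role, or where stated, after their values were seen. Alternatives were DESeq2 1.42.0, edgeR's exact test, a fit to all 12 queens, other scalings and filters, a term for suffix or queen number, and leaving out queens. Fits without both queens numbered 1 and without GB49544, and the lowest queens by library totals, were added after seeing the data. RefSeq's honey bee gene table matched 26 of the 147 genes, with placeholder symbols only.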

Additional observations from a re-analysis of the deposited data

Results flagged for a closer look

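Within groups of 4 queens, 3 of the 46 group levels of the 23 genes named by rule had a queen set apart from the rest by Dixon's test at the 95% level, where chance marks about 1 in 20. In GB55452, mated queen 7 was highest with 4369 CPM, and the next mated queen had 2893 CPM. In GB51238, ortholog of *desat1*, mated queen 6 was highest with 1899 CPM, and the next had 612 CPM. In GB48260, CO2-treated queen 1 was lowest with 1924 CPM, and the next CO2-treated queen had 3878 CPM. The first 2 of these queens are not the queens numbered 1 that were lowest in most genes of the set.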

How the results depend on the processing

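The number of genes in the set was 338 with a ratio limit of 1/2 and 56 with 1/8, and 178, 123, 147 and 115 with a minimum of 1 CPM, a minimum of 20 CPM, DESeq2 size factors and library totals, the last 115 all being in the set. With each virgin queen left out in turn it was 171 to 308. Between mated and CO2-treated queens, 94 of all genes and 2 of the set passed. A fit to all 12 queens gave 86 and 0, edgeR's exact test 588 and 29, DESeq2 768 and 33, library totals 111 and 4, and a term for the suffix 64 and 3. Without both queens numbered 1 the counts were 191 and 15. Leaving out 1 queen gave 17 to 680 of all genes and 0 to 24 of the set. The median log2 fold change of the set was between 0.51 and 0.89 in the fits that left out 1 queen, 0.50 with the suffix term, 0.65 without both queens numbered 1 and 0.025 with library totals. Library totals turned the sign for GB43571 (-0.37), GB49876 (-0.13), GB54460 (-0.19) and GB43805 (-0.44), none with an adjusted p under 0.05 in either fit. The suffix term gave -0.18 for GB43805. Leaving out 1 queen gave -0.37 to 0.12 for GB43006, above 0 without mated queen 1 or CO2-treated queen 5, -0.14 to 0.61 for GB43805, below 0 without mated queen 7, and -0.33 to 0.55 for GB55452, above 0 without CO2-treated queen 5, and the cause was not tested.

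Mated and CO2-treated queens share the numbers 1 and 7, which name different animals. Deviations of same-numbered queens correlated at 0.40 for number 1 and 0.07 for number 7 across genes, which are not independent replicates, so the numbers were not taken as a pairing. With queen number as a replicate block in a fit to 12 queens, 10 genes passed, 1 of them in the set and lower in mated queens, 61 genes of the set were higher in mated queens, and the median of the set was -0.12. Neither GB43575 (1.85, adjusted p = 0.326 in edgeR) nor GB43576 (1.88, adjusted p = 0.310 in edgeR) passed in this fit. Under this replicate block the log2 fold change was negative for GB43571 (-0.98), GB49876 (-0.66), GB51729 (-0.070), GB54460 (-0.36), GB51238 (-0.043) and GB43805 (-0.14). Of the 436 values of named genes under alternatives, 385 kept direction and side of the threshold. In the suffix fit no gene passed under any alternative, and the median of the set was between -1.30 and -0.49. With library totals, mated queen 1 was lowest in 76 genes of the set, against 126 with TMM. The floor at a count of 0 was 0.134 to 0.271 CPM, far below the levels discussed except in GB41407 and GB50053.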
